A study of Homo sapiens with 8 samples.

Results

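The regions described here carried H3K4me3 calls in every wild type (WT) library and in a single one of the 3 ZBTB48 knockout (KO) libraries, replicate 1. They were chosen by the calls themselves. The peak lists of the 6 ChIP libraries were merged into 31195 consensus regions on chromosomes 1 to 22, X and Y, with a call scored for each library whose list had a peak sharing 1 bp or more with the region. Of the 31195 regions, 467 were called in WT replicates 1, 2 and 3 and KO replicate 1, and in neither KO replicate 2 nor KO replicate 3. The cells were clones of U2OS, an osteosarcoma line of human origin whose telomeres are kept by recombination rather than by telomerase. The 3 WT and 3 ZBTB48 KO samples were separate clones. By the sample records all of them were kept for 24 h with interferon gamma (IFNγ) at 250 U/ml, so no untreated state was compared. A figure legend of the published study gives a longer IFNγ exposure for a panel with H3K4me3 tracks. Each KO library is 1 clone, and what belongs to a clone and what belongs to its library cannot be told apart. The 2 WT input samples were not used here.

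H3K4me3 is the trimethylation of lysine 4 on histone H3. It is laid down by SET1 and MLL complexes, and it is strongest at the 5′ ends of active genes, above all where the DNA is rich in unmethylated CpG dinucleotides. Weaker and narrower H3K4me3 is also found away from annotated promoters. ZBTB48, also named TZAP, is a zinc finger protein that binds TTAGGG telomeric repeats and a limited number of gene promoters.

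A few of the 467 regions show what kind of DNA was involved. The first pair below are promoters, taken from the RefSeq promoter table on GRCh38.p14, of the genes whose member regions held the strongest calls on chromosome 4. The third is the RefSeq promoter of RAET1L, which had the fewest CpG of the promoters read. The last pair are 300-base windows of GRCh38, plus strand, each centred on a KO replicate 1 peak. They come from the most strongly called members over 1 kb from the 5′ end taken for each gene. That end is from 1 transcript per gene, and other transcripts may start nearer. Every CG dinucleotide is in capitals.

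CCDC158 promoter, chr4:76421092-76421391, minus strand: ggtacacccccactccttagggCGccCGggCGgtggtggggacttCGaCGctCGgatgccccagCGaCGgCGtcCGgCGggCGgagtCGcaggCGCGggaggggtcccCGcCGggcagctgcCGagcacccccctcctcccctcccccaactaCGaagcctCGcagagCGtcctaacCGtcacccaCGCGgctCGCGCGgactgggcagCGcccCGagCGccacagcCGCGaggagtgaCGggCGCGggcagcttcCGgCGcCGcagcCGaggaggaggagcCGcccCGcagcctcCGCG
ANXA3 promoter, chr4:78551520-78551819, plus strand: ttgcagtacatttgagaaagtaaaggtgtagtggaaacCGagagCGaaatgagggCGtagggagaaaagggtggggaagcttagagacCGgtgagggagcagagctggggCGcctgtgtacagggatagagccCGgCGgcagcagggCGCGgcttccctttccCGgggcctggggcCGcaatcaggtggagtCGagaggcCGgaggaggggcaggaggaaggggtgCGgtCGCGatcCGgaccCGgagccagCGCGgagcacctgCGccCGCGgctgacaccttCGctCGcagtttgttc
RAET1L promoter, chr6:150025483-150025782, minus strand: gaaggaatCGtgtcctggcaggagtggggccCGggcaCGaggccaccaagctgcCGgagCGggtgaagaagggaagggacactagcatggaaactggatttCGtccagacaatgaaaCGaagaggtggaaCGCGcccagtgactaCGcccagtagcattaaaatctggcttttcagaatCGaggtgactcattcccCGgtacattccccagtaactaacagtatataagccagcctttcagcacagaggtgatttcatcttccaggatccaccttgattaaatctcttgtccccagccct
Intergenic member nearest to HMGA2, chr12:65729014-65729313: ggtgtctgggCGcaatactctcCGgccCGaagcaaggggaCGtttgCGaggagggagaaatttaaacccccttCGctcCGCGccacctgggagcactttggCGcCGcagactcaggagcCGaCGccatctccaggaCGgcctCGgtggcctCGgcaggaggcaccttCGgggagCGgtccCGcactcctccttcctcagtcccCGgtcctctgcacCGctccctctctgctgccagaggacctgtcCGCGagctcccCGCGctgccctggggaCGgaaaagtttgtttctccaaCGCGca
Exonic member in OR56A3 and TRIM5, chr11:5938753-5939052: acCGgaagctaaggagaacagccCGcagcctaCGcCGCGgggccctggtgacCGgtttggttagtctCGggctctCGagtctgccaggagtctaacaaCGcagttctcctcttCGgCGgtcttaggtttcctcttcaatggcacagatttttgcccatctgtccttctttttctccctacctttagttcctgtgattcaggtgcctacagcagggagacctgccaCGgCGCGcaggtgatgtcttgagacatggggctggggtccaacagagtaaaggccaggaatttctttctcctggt

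CG dinucleotides numbered 43 in the CCDC158 promoter, 25 in that of ANXA3 and 12 in that of RAET1L. The window near HMGA2 held 27, more than the ANXA3 promoter although no gene starts there. The window in OR56A3 and TRIM5 held 14. All of these windows lie in members ranked among the strongest by their weakest call.

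The 467 regions were 2.41% (95% Wilson interval 2.2 to 2.63, counting error only) of the 19413 regions called in all 3 WT libraries. Most of the latter, 17920 or 92.3%, were called in all 3 KO libraries as well, and 102 were called in no KO library. Kept by replicate 2 alone were 37 regions, or 0.191%, and kept by replicate 3 alone were 17, or 0.0876%. A further 513 were shared by KO replicates 1 and 2, and 292 by KO replicates 1 and 3. KO replicate 1 therefore called 98.9% of the regions marked in all WT libraries, against 95.5% in KO replicate 2 and 94.2% in KO replicate 3. Since the rule is built on these calls, the shares describe the choice and carry no test.

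**Figure D1:**
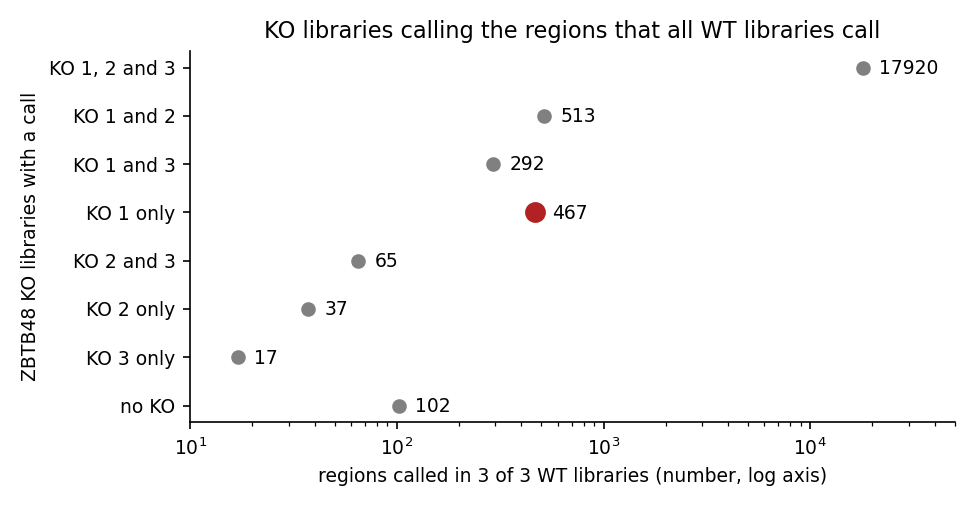
Number of regions called in all 3 WT libraries (x axis, log scale) for each combination of ZBTB48 KO libraries that also called them (y axis). The 467 regions kept by KO replicate 1 only are the red point, and stand above the 37 and 17 kept by replicates 2 and 3 only.

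The same calls can also be sorted by the pair of libraries that was missing. Of 1502 regions called in exactly 4 of the 6 libraries, 467 (31.1%) lacked KO replicates 2 and 3. These are the members by definition, so their number is a recount and no separate evidence. The next pairs were WT replicate 1 with KO replicate 3, at 189 regions, and WT replicates 1 and 2, at 176. The lists differed in length, and KO replicate 1 had the longest with 26370 peaks, against 21712 and 21963 in KO replicates 2 and 3 and 22446, 22784 and 24474 in the WT libraries. When the KO replicate 1 list alone was shortened to its 21712 highest peaks, 315 of the regions with this pattern were left. With every list shortened to that length, 238 were found, beside 90 for KO replicate 2 and 40 for KO replicate 3. KO replicate 1 also called 1983 regions that no other library called, with a median width of 418 bp, of which 3.38% were at a protein-coding 5′ end.

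The calls were low in the lists of all 4 libraries that made them. Strength was read from the −log10 p of each peak, turned into a percentile of its own list from 0 (weakest) to 100 (strongest), because the scale of the lists differed: median fold enrichment per list was 13.4 and 14 in WT replicates 1 and 2 and between 4.19 and 4.65 in the other 4. The median member stood at percentile 14.3 in WT replicate 1, 15.2 in WT replicate 2, 19.1 in WT replicate 3 and 23.2 in KO replicate 1. The regions called in all 6 libraries had medians of 60, 60.6, 63.2 and 65.9 in the same lists. At or above percentile 50 there were 1, 1, 7 and 12 of the 467 members, and below percentile 10 there were 164, 133, 96 and 70. The median −log10 q was 3.77, 4.42, 4.43 and 6.13. The median KO replicate 1 percentile was 35.5 at a fold enrichment of at least 4 and 67.8 when a peak had to cover 50% of a region.

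**Figure D2:**
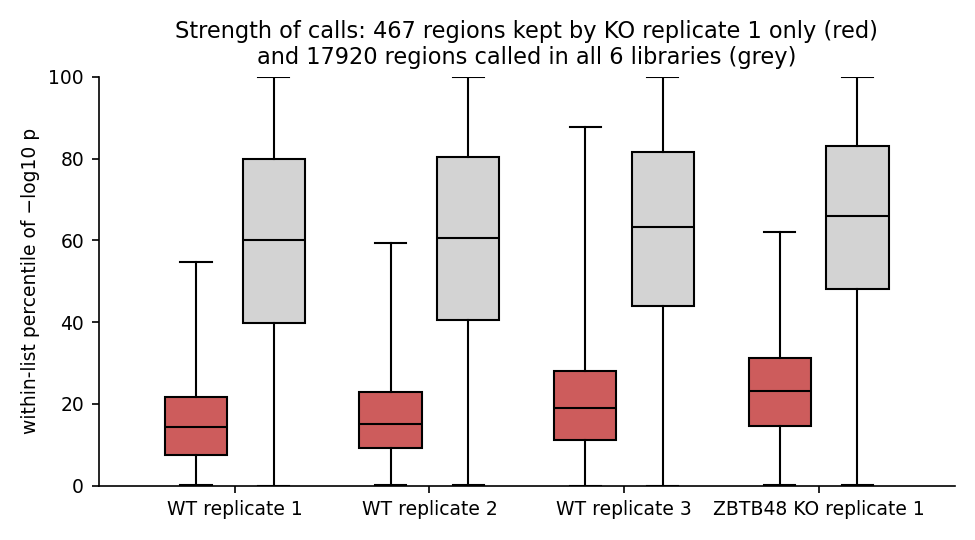
Within-list percentile of −log10 p (y axis) in the 4 libraries that called the members (x axis), for the 467 members in red and the 17920 regions called in all 6 libraries in grey. Boxes span the quartiles around the median and whiskers the lowest and highest region. The red boxes, with medians of 14.3 to 23.2, lie below the grey ones, with medians of 60 to 65.9.

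Among the 4 lists, KO replicate 1 gave the highest percentile for 256 members, WT replicate 3 for 128, WT replicate 2 for 43 and WT replicate 1 for 40. That list was also the longest, and a longer list holds more weak peaks below a given one. Counted from the top of each list, the number of members within the first 21712 peaks was 426 in WT replicate 1, 427 in WT replicate 2, 349 in WT replicate 3 and 315, or 67.5%, in KO replicate 1. By rank, then, the members lay deeper in the KO replicate 1 list than in any WT list, while by percentile they lay higher. The direction between KO replicate 1 and the WT libraries depends on the scale chosen.

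The members were also narrow. The median consensus width was 998 bp (318 to 4748 bp), against 3002 bp for regions called in all 6 libraries and 851 bp for the 102 regions called in no KO library. Regions shared by KO replicates 1 and 2 had 1113 bp and those shared by KO replicates 1 and 3 had 1028 bp, so this width was not particular to the members. The base pairs under peaks within a member had medians of 579, 661 and 702 bp in WT replicates 1 to 3 and 734 bp in KO replicate 1. Peak width differed between the lists. In regions called in all 6 libraries the same medians were 2763, 2776 and 1748 bp in the WT libraries and 1720 bp in KO replicate 1. A single KO replicate 1 peak made the call in 466 members, and 1 member held 2 peaks.

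Each KO library missed regions that were weakly marked in the WT clones more often than strongly marked ones. The 19413 regions were ordered by their mean percentile over the 3 WT lists and divided into 10 equal groups. In the weakest decile KO replicate 1 called 91.5% of the regions, KO replicate 2 called 67.2% and KO replicate 3 called 59.2%. The second decile had 97.9%, 90.3% and 86.8%, and the third had 99.5%, 97.7% and 97%. From the fourth decile upwards all 3 libraries called 99.5% or more. The members followed this course: 335 lay in the weakest decile (17.3% of it, interval 15.6 to 19), 95 in the second (4.89%), 31 in the third (1.6%) and 5 in the fourth. The lowest 3 deciles thus held 461 of the 467 members, or 98.7%.

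**Figure D3:**
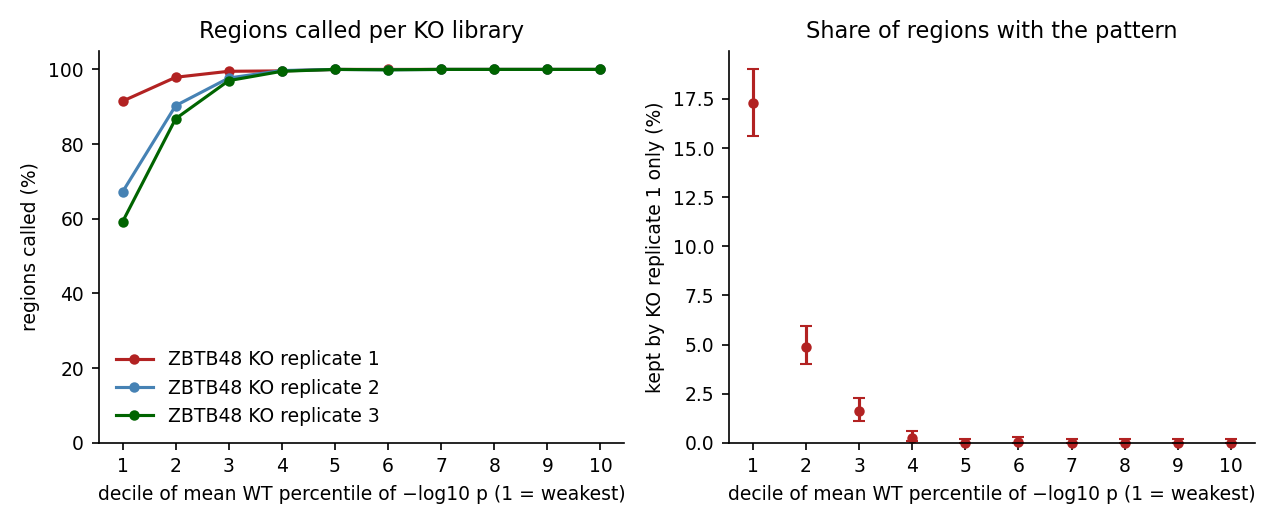
Left, percentage of regions called in each ZBTB48 KO library (y axis) by decile of the mean WT percentile of −log10 p (x axis, 1 is weakest). Right, percentage of each decile that only KO replicate 1 kept, with 95% Wilson intervals (counting error only). The share falls from 17.3% in the weakest decile to 0.257% in the fourth.

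In deciles 5 to 10, 11646 of 11647 regions were called in all 3 KO libraries, and the remaining region was a member. It was an intergenic region on chromosome 12 (chr12:65728282-65730097 in GRCh38), 94386 bp from the 5′ end of HMGA2, which encodes an architectural chromatin protein of the high mobility group. Its sequence is shown above. Peaks covered 1788, 1648 and 1375 bp of it in WT replicates 1, 2 and 3 and 1296 bp in KO replicate 1. The corresponding percentiles were 54.6, 59.3, 87.7 and 62.1, and −log10 q was 75.1, 98.1, 77.7 and 50.9. No other member was at or above percentile 50 in all 4 lists. The nearest peak was 11141 bp away in KO replicate 2 and 11336 bp away in KO replicate 3. Within 100 kb on either side, excluding the member itself, every library had a call: 2 peaks in each KO library and in WT replicates 1 and 2, and 3 in WT replicate 3. The covered length there was 4542 and 4326 bp in KO replicates 2 and 3 and 5112 bp in KO replicate 1, so the flanks of this region were marked in all 3 KO libraries.

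Regions that missed the rule by 1 call had similar percentiles in KO replicate 1. The 513 regions shared by KO replicates 1 and 2 stood at a median percentile of 24.9 in KO replicate 1 and 13.6 in KO replicate 2. They were poorer in CpG than the members (median ratio 0.323 against 0.427), and 3.9% of them were at a protein-coding 5′ end. The 292 shared by KO replicates 1 and 3 stood at 26.1 in KO replicate 1 and 12.6 in KO replicate 3, with a CpG ratio of 0.438 and 11% at a protein-coding 5′ end. At the edge of the rule, the members with the lowest −log10 q in KO replicate 1 were intergenic or intronic regions nearest to CA10 (1.29), GJE1 (1.32), TENM2 (1.32) and TMEM18 (1.42). Just outside it, regions nearest to INTS3, KLHL1, FSCB and SLCO3A1 had a KO replicate 3 peak with a −log10 q of 1.23 each, covering 466, 504, 446 and 269 bp. Each of these stood at percentile 1.04 of the KO replicate 3 list, so their inclusion or exclusion turned on some of its weakest peaks.

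Under the rule as stated, few of the members were promoters. Within 1 kb of the 5′ end of a protein-coding gene lay 37 of the 467 members, or 7.92% (interval 5.8 to 10.7), against 64.6% of the regions called in all 6 libraries and 10.8% (6.13 to 18.3) of those called in no KO library. A further 48 (10.3%) lay at the 5′ end of another annotated gene, 60 (12.8%) in an exon, 154 (33%) in an intron and 168 (36%) between genes. Of those 48, 31 were at the 5′ end of a long non-coding RNA gene and 10 at that of a processed pseudogene. These classes use 1 transcript per gene. With the 5′ ends of all annotated transcripts, 110 members (23.6%) lay within 1 kb of one. The share at protein-coding 5′ ends was 15.7% at a fold enrichment of at least 4. It was 61.4% when a peak had to cover 50% of a region to count as a call, a setting that gave 2611 regions. The median member was 55683 bp from a protein-coding 5′ end and 13156 bp from the 5′ end of any gene. Many of the exonic and intronic members lay in protein-coding genes, 161 genes in all, and others lay only in genes that are not protein-coding. Of the 161, 7 held 2 members each: CFAP299, CSMD1, CUBN, DMRT1, NXN, UNC80 and ENSG00000271949.

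**Figure D4:**
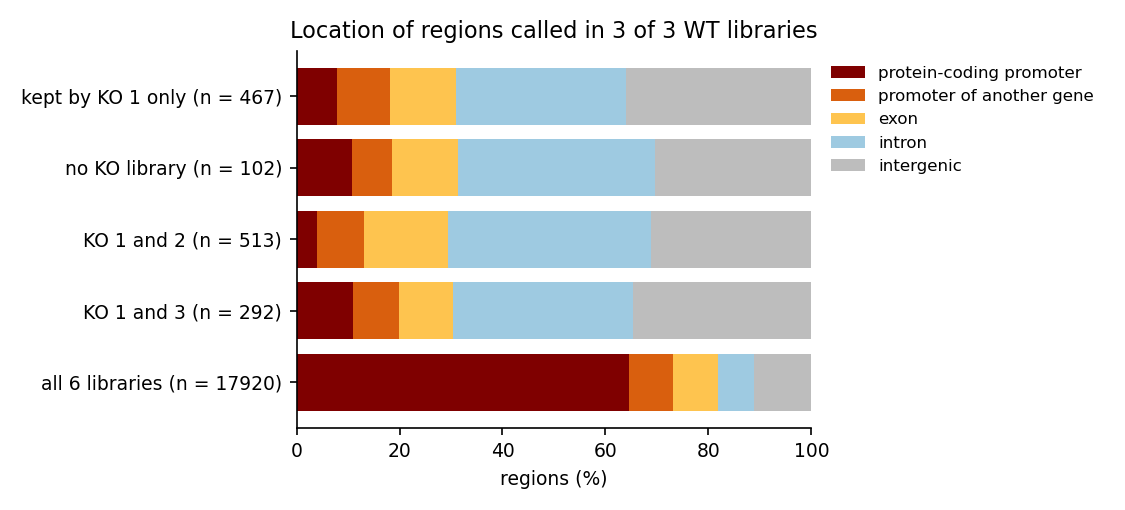
Percentage of regions (x axis) in 5 location classes for regions called in all 3 WT libraries, by the KO libraries that also called them (y axis, with the number of regions). Protein-coding promoters make up 7.92% of the 467 members and 64.6% of the 17920 regions called in all 6 libraries.

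This location went with the strength of the calls. In the weakest decile 2.69% of the members and 5.23% of the other regions were at a protein-coding 5′ end, and intergenic regions were 39.1% and 34.8%. In the second decile 12.6% of the members and 11.6% of the others were at a protein-coding 5′ end. In the third it was 13 of 31 members, or 41.9%, against 24.3%. Over all regions called in 3 of 3 WT libraries the share was 60.3%, against 7.92% in the members. Within these deciles the gap between members and other regions was smaller, and its direction differed. A decile matches strength only roughly. In the weakest, the median KO replicate 1 percentile was 19.8 in members and 24.8 in the other regions it called. Peaks of the members in KO replicate 1 were still the narrower ones: the median covered length in the weakest decile was 671 bp in members and 846 bp in the other regions, with uncalled regions counted as 0 bp, and 844 bp against 1027.5 bp in the second.

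The reference sequence under the members was poor in CpG. In the central 500 bp the median ratio of observed to expected CpG was 0.427 and the median GC content 47.2%. The regions called in all 6 libraries had 0.652 and 59.6%, and those called in no KO library 0.359 and 45.7%. The 37 members at protein-coding 5′ ends stood apart with a median of 0.682 and 62.8% GC, close to the 0.707 and 62% of the promoters called in all 6 libraries. Within the weakest decile the CpG ratio was 0.4 in members and 0.359 in other regions, and within the second 0.496 and 0.437.

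Short motifs were counted on both strands in the same windows. TTAGGG, the telomeric repeat unit bound by ZBTB48, was in 16.7% of the members, 15.3% of regions called in all 6 libraries and 15.3% of all regions called in 3 of 3 WT libraries. TTCNNNGAA, the GAS element of STAT factors that act downstream of IFNγ, was in 10.5%, 11.1% and 11.3%. TGANTCA, the AP-1 type site, was added after the data were seen and was in 22.9%, 10.1% and 11.3%. This site was in 32% of regions shared by KO replicates 1 and 2 and 21.2% of those shared by KO replicates 1 and 3. Of the regions called in no KO library, 29.4% had it. It was in 28.1% of the members and 30.6% of the other regions of the weakest decile, and in 8.42% and 21% in the second decile. A match shows only that these letters occur in the window.

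Whether the genes with a member at their promoter are related to each other was not tested. In the 13206 protein-coding promoters called in all 3 WT libraries, 58 (0.439%) had this pattern of calls, while 4 were kept by KO replicate 2 only and 1 by KO replicate 3 only. This count became 92 without KO replicate 2 and 94 without KO replicate 3. The 467 regions reached 38 genes, of which 37 were among the 58. The other 21 promoters, such as those of ABCA1, EPOR, HTR1A and TRIM72, had the pattern within 1 kb of their 5′ end but were at no member region. SH3BGR was the reverse, a member region whose promoter window did not have the pattern. The 5′ end itself lay inside the member for 34 of the 38 genes. Members at protein-coding 5′ ends were called at median percentiles of 25.5, 26.2 and 33.2 in WT replicates 1 to 3 and 37.8 in KO replicate 1, above the 13.3, 14.8, 18.5 and 22.8 of the other 430.

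By the rank of their weakest call, CCDC158 came first among the promoters. CCDC158 encodes a coiled-coil protein, and its region (chr4:76420408-76422008) was covered for 1033, 1601 and 1004 bp in WT replicates 1, 2 and 3 and for 961 bp in KO replicate 1. The percentiles were 40, 38.7, 50 and 58, the highest of them in KO replicate 1. The nearest peak was 112739 bp away in KO replicate 2 and 112767 bp away in KO replicate 3. Within 100 kb on either side those libraries had no peak, whereas WT replicates 1, 2 and 3 had 2, 3 and 2 and KO replicate 1 had 3. One of these was a second member, an intergenic region nearest to SHROOM3, with percentiles of 11.3, 3.75, 30.4 and 35.

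ANXA3, a calcium-dependent phospholipid-binding annexin on the same chromosome (chr4:78551088-78552949), was covered for 1598, 1862 and 1222 bp in the WT libraries and 1140 bp in KO replicate 1. Its percentiles were 35.6, 43.8, 53.7 and 58.3. All 4 libraries thus placed it near the middle of their lists. The next KO replicate 2 peak was 92885 bp away and the next KO replicate 3 peak 222313 bp away. A single peak lay within 100 kb in each WT library and in KO replicates 1 and 2, and none did in KO replicate 3.

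TRANK1 (chr3:36943993-36945719) had 1695, 1509 and 1290 bp in the WT libraries and 1253 bp in KO replicate 1, at percentiles of 35.7, 42.6, 46.5 and 48.2. RAET1L, a ligand of the NKG2D receptor of natural killer cells (chr6:150024892-150026171), had 1125, 1257 and 1138 bp and 1235 bp, at percentiles of 34.6, 38.9, 46.1 and 54.8. The KO replicate 1 coverage was the lowest of the 4 for TRANK1 and within the WT range for RAET1L. Its percentile was the highest of the 4 for both promoters. Covered lengths of single regions were not adjusted for the differing peak widths of the lists.

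The remaining promoters of the first 12 had lowest percentiles between 23.5 and 30.7. They were SLC7A3, a cationic amino acid transporter, TVP23B, a Golgi membrane protein, ZNF726, a zinc finger gene, GPRASP1, which sorts G protein-coupled receptors, TESMIN, a testis-expressed metallothionein-like protein, the shared promoter of SHE and TDRD10, and BEND4. The percentiles of SLC7A3 were 31.9, 30.7 and 37.7 in the WT libraries and 42.8 in KO replicate 1. The last pair went the other way. SHE and TDRD10 had 23.7, 35.2 and 60.8 in the WT libraries and 26.2 in KO replicate 1, with 887, 1255 and 1253 bp covered against 528 bp. BEND4 had 40, 39.5 and 33.9 against 23.5, with 1270, 1123 and 912 bp against 713 bp. In both the KO replicate 1 peak was the narrowest of the 4. Its median covered length was also the lowest of these 4 libraries in the regions called in all 6 libraries. The KO replicate 1 percentile was above WT replicate 1 alone in SHE and TDRD10 and below all 3 WT libraries in BEND4.

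Several narrow members lay at genes with close copies elsewhere in the genome, where reads mapping to several places were removed by the authors. METTL2B was covered for 274, 298 and 340 bp in the WT libraries and 368 bp in KO replicate 1, ALG10 for 280, 292, 259 and 286 bp, and TVP23B for 252, 389, 429 and 356 bp. An intergenic member nearest to FRG2C on chromosome 3 had 469, 358, 371 and 397 bp. Read placement there was not measured, so these values are uncertain, and its part in their width was not tested.

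Away from the 5′ end taken for each gene, the ranking after the region near HMGA2 began with an exonic region in OR56A3 and TRIM5 on chromosome 11 (chr11:5937901-5940255). OR56A3 is an olfactory receptor gene and TRIM5 encodes a restriction factor of retroviruses. Coverage was 1904, 2348 and 1309 bp in the WT libraries and 1326 bp in KO replicate 1, at percentiles of 35, 42.9, 45.2 and 46.6. The region lay 1996 bp from the 5′ end of OR56A3 and 128421 bp from the nearest KO replicate 2 peak. An intergenic region nearest to SYBU had percentiles of 34.9, 37, 40.5 and 41.5, and one nearest to ZNF281 had 35.5, 30.4, 32 and 33.3. The exonic member nearest to FOXL1, in a gene that is not protein-coding, had 38.2, 31.8, 40.8 and 38.4 and was the closest of all members to a KO replicate 2 peak, at 1026 bp.

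The gene lists tied to ZBTB48 and to IFNγ had no promoter with this pattern. This held for 14 genes of MHC class II and its regulators, of which 8 were called in all WT libraries, 5 ZBTB48 targets, all called, and 39 interferon-response genes, 34 called. Among the last, 34 promoters were called in all 6 libraries. It was also so for 11 called cell cycle and p53 genes and 5 constitutive controls. Of 10 osteoblast markers, 3 or 4 had a called promoter in each library, and of 6 blood and epithelial markers 1 did, with none showing the pattern. These lists are small beside a background of 0.439%.

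In larger families the pattern was at or near that background or rested on 1 or 2 genes. Zinc finger genes had 2 of 457 called promoters (0.438%), ZNF726 and ZNF738. Solute carriers had 2 of 234 (0.855%), SLC7A3 and SLC24A2, a sodium-calcium-potassium exchanger. Developmental transcription factors had 1 of 117, TBX21, the T-bet factor of type 1 helper T cells. TBX21 was covered for 1521, 1631 and 1108 bp in the WT libraries and 567 bp in KO replicate 1, at percentiles of 30.5, 37, 41.3 and 20.6, so its KO replicate 1 call was the weakest of the 4. Collagens had 1 of 24, COL18A1, the precursor of endostatin, at 29.7, 21.2, 22.2 and 29.7. Of the TRIM family 1 of 43 had it, TRIM72, which was not at a member region. Ion channels (126 called), cadherins and protocadherins (36) and ribosomal proteins (80) had none.

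The members were scattered over the genome. They were on every chromosome from 1 to 22 and on X. Chromosome 1 held most of them, 43 or 9.21% of all members, which was 2.39% of its regions called in all WT libraries and so near the background of 2.41%. Chromosome X stood highest, with 35 of 689 regions (5.08%, interval 3.67 to 6.98) against 432 of 18724 (2.31%, 2.1 to 2.53) on the autosomes. Among regions of the lowest 3 deciles alone it was 35 of 249 on X (14.1%, 10.3 to 18.9) and 426 of 5575 on the autosomes (7.64%, 6.97 to 8.37). The members on X included the promoters of SLC7A3, GPRASP1, FAAH2, PCYT1B and ZXDB. After X came chromosome 21 (4.04%, 2.06 to 7.77) and chromosome 4 (3.99%, 2.83 to 5.61), whose intervals overlapped that of X. Chromosome 22 stood lowest with 2 of 437 (0.458%, 0.126 to 1.65). Regions of a chromosome share a clone's copy number, the intervals cover counting error only, and the difference between chromosomes was not tested.

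**Figure D5:**
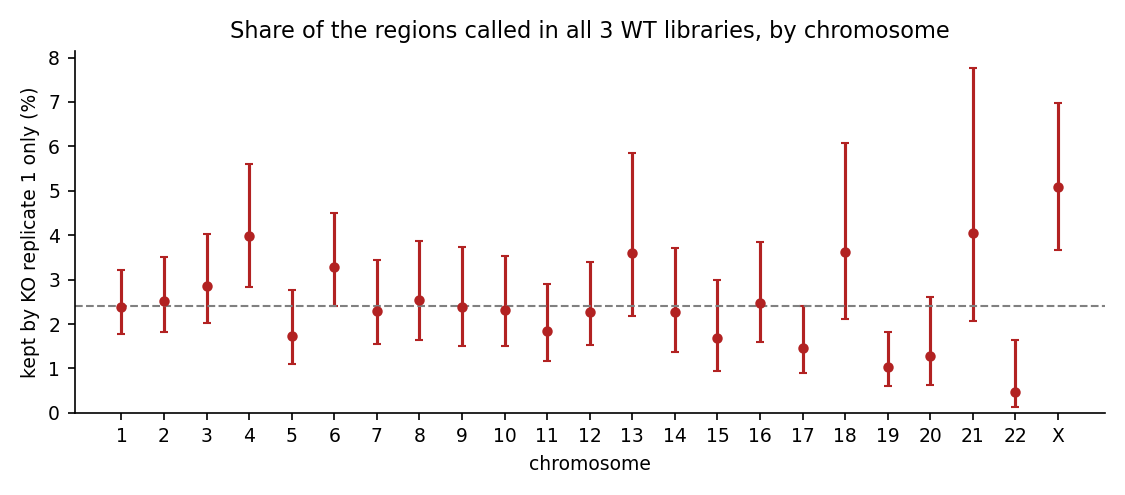
Percentage of the regions called in all 3 WT libraries that only KO replicate 1 kept (y axis), by chromosome (x axis), with 95% Wilson intervals (counting error only). The dashed line is the share over all chromosomes, 2.41%. Chromosome X is highest at 5.08% and chromosome 22 lowest at 0.458%.

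Along the chromosomes most members were isolated. Of the 467, 432 had no other member next to them in the order of regions called in all WT libraries, 16 runs held 2 members and 1 run held 3. The run of 3 covered 1.29 Mb of chromosome 6 (chr6:8743058-10033836) and contained no protein-coding 5′ end. Pairs included the promoters of TRANK1 and CCDC158 and a stretch of 0.0158 Mb around EOMES, a T-box factor. In windows of 5 Mb, 300 of the 600 windows with a region called in all WT libraries held a member, and 1 window held 5. That window, from 75 Mb on chromosome 4, contained the promoters of CCDC158 and ANXA3, the regions nearest to SHROOM3 and GK2 and the 5′ end of ENSG00000248128. The other 25 regions of the window were called in 25, 25 and 22 cases by KO replicates 1, 2 and 3.

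Neighbouring regions that were no members were mostly called in each of the 3 KO libraries. The nearest region on either side of a member that was called in all WT libraries and was no member, 879 in all, was called in 98.4%, 96.5% and 94.9% of cases by KO replicates 1, 2 and 3. The other 18067 regions had 98.9%, 97.9% and 96.6%. Both groups leave out the members, and this choice by itself raises the rates of KO replicates 2 and 3. The nearest KO replicate 2 peak was a median of 51706 bp from a member and at least 1026 bp away. For KO replicate 3 the median was 52597 bp and the shortest distance 881 bp. Within 5 kb of a peak were 26 members (5.57%) in either list.

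The number of members depended on the libraries and on how a call was counted. Leaving out a library relaxes the rule, and the count was then 810 without WT replicate 1, 716 without WT replicate 2, 731 without WT replicate 3, 980 without KO replicate 2 and 759 without KO replicate 3. It was 229 when peaks needed a fold enrichment of at least 4. The paper gives a range of sequenced reads per sample, but not the number for each library. As no read counts are in the lists, the number of reads kept for each library is unknown here. A region without a peak may still carry the mark below what the peak caller accepted.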

How the data were processed

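H3K4me3 ChIP-seq was carried out on 3 WT and 3 ZBTB48 KO clones of U2OS treated with IFNγ, grouped by genotype and replicate number as labelled. According to the methods, adapter trimming by the authors used trimmomatic and alignment to GRCh38 used Bowtie2 2.3.5.1. Duplicates and reads that were unmapped or mapped to several places were then discarded, and MACS 2.1.1.2 was run on each library for broad peaks in paired-end mode. Whether an input went into each list is not given in the sources used here. The deposited lists give a display score, not used here, a ratio of ChIP signal to background (fold enrichment), and p and q as −log10, each averaged by the authors' peak caller over a broad peak. Peaks were ranked by −log10 p only within a list, whereas the alternatives with a minimum fold enrichment or −log10 q put 1 limit on all 6 lists, whose scales differ.

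Touching peaks of the 6 lists were merged. Percentiles of −log10 p took the highest peak of a library in a region. Gene positions came from GENCODE release 44, with 1 end for each of 20033 protein-coding genes (MANE Select or canonical transcript) and windows of 1 kb on either side. 0 peaks ran past a chromosome end of the GRCh38 sequence used. RefSeq promoters matched 28 of the 38 genes. Location was assigned in the order protein-coding promoter, promoter of another gene, exon, intron, intergenic.

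The genes named were, first, the 12 promoter members and the 6 members away from the 5′ end taken for each gene. Both sets had the highest lowest-percentile over the 4 calling lists. Named too were genes of the lists that lie in a member, with the first of each family. The 4 regions just inside and just outside the rule were added, with genes of the longest run and the densest 5 Mb window. ZNF738, SLC24A2, METTL2B, ALG10, EOMES, SH3BGR, the promoters missed by the region rule, the remaining members on chromosome X and the genes with 2 members were named after their values were seen. The values of 1 of the 12 promoter members are not reported here. The members and lists were chosen with earlier results of these data known. No test was run, because the calls compared are those that chose the regions, and separate clones were the replicates. Alternatives were stricter peaks, lists of equal length, overlap of 50% of a region, merging within 1000 bp, autosomes only, other promoter windows, leaving out each library, and, added after the data were seen, KO replicate 1 shortened alone. The calling code was run on simulated lists and recovered 658 of 658 planted regions with this pattern. The simulated peaks of a region were placed so that they merge, so this checks the code and not how weak or split peaks are called. Python 3.11.15, numpy 2.4.6, pandas 2.3.3, scipy 1.17.1, pysam 0.24.0, samtools 1.23.1 and matplotlib 3.10.9 were used.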

Additional observations from a re-analysis of the deposited data

How the results depend on the processing

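The order of the 3 KO libraries held under every alternative that gave all 3 counts, with more regions kept by KO replicate 1 alone than by KO replicate 2 or 3 alone, whereas the size of the count did not hold. Counts for KO replicates 1, 2 and 3 alone, 467, 37 and 17 as reported, were 238, 90 and 40 with lists of equal length, 2611, 179 and 94 when peaks had to cover 50% of a region, 229, 29 and 26 at a fold enrichment of at least 4, and 315, 155 and 81 with the KO replicate 1 list alone shortened. Leaving out a library gave 716 to 980, 53 to 102 and 26 to 82. KO replicate 1 cannot be left out, since the rule needs it. Promoters with the pattern, 58 as reported, were 48 to 65 otherwise and 70 to 94 without a library.

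The other values were higher under each of the following settings. With −log10 q of at least 3, fold enrichment of at least 4, lists of equal length, 50% cover and KO replicate 1 shortened, the percentage at a protein-coding 5′ end, 7.92 as reported, was 11.2, 15.7, 13, 61.4 and 10.8. The median KO replicate 1 percentile, 23.2, was 28.8, 35.5, 29.9, 67.8 and 28.4. The median covered length, 734 bp, was 948.5, 1035, 870, 1597 and 844 bp. The CpG ratio, 0.427, was 0.467, 0.466, 0.495, 0.609 and 0.467. With 5′ ends of any transcript the percentage was 12. Without a library these 4 values were 5.8 to 9.09, 19.6 to 24.4, 658 to 795 bp and 0.367 to 0.439. The share of members on whichever chromosome held most stayed within its counting interval under all 12 alternatives. No paired analysis was possible because no result comes from a test. The lists hold no counts, so the reads kept for each library and the strength of regions that were not called are unknown here.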
